A study of Zea mays with 9 samples.

Results

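Of the 39301 maize genes with a deposited expression value, 222 were high in germinating seeds under salt and close to the control level in germinating seeds that had received salt and melatonin. They were chosen by their values. With L the log2 of a group's mean FPKM plus a pseudocount of 1, the rise L(NaCl) − L(CK) had to be 1.5 or higher and L(NaCl+MT) − L(CK) had to be 0.5 or lower. Every NaCl library also had to lie above every CK and every NaCl+MT library. FPKM is a fragment count scaled to transcript length and to the mapped fragments of the library. The choice used all 3 group contrasts, so the levels of these genes are a description and carry no test.

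The libraries came from total RNA of maize seeds (Zea mays) sampled at germination. There were 3 groups of 3 biological replicates. The labels call them CK, NaCl and NaCl+MT, and the study's title names salt stress and exogenous melatonin. The labels give no cultivar, concentration, sampling hour or order in which melatonin and salt were given, and they do not spell out CK, which is treated here as the untreated control. Nothing in them limits a library to the embryo or the endosperm, so each value is an average over whatever tissues of the seed were taken. In such bulk samples more cells of one kind and more RNA per cell cannot be told apart.

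A germinating seed takes up water, restarts respiration and draws on stored reserves, and sodium chloride burdens it with both osmotic stress and ion toxicity. Melatonin is an indoleamine that plants make themselves and that is studied as a seed treatment against stress. Seeds also carry a layer of chemical defence against insects and fungi. Protease inhibitors block the digestive enzymes of herbivores, chitinases cut the chitin of fungal walls, and in maize the benzoxazinoids act as toxins against both. Many of these genes are known from wounded leaves.

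The level of the 222 genes changed from a median over genes of 3.45 FPKM in CK to 16.2 FPKM in NaCl and 3.99 FPKM in NaCl+MT (each gene taken as its group mean). On the log2(FPKM + 1) scale the rise had a median of 1.87, with quartiles of 1.63 and 2.36 and a maximum of 5.40. The rise was at least 2 in 98 genes, at least 3 in 22 and at least 4 in 4. In CK, 62 of the genes had a mean under 1 FPKM, and in NaCl 147 had a mean of at least 10 FPKM and 8 a mean of at least 1000 FPKM. The set therefore spans genes close to silence in the control seed and some of its abundant transcripts.

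In NaCl+MT the genes sat slightly above the control on balance. The difference L(NaCl+MT) − L(CK) ran from -0.90 to 0.50 with a median of 0.17, against a median of 0.07 over the 22379 genes tested. It lay within 0.25 of 0 in 118 genes, above 0.25 in 88 and below -0.25 in 16. The NaCl+MT mean was the higher one in 168 genes and the lower one in 53. All 3 NaCl+MT libraries lay above all 3 CK libraries in 36 of the 222 genes, where 21.1% of the tested genes showed this, and all below in 3, where 10.0% did. Because the rule caps this difference from above, these counts describe the choice.

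**Figure D1:**
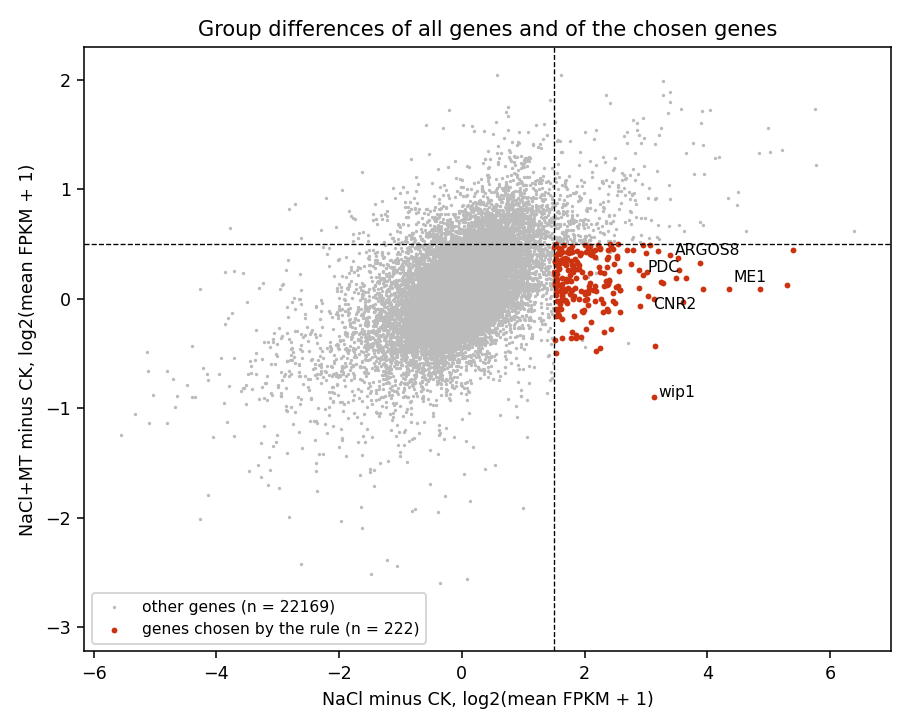
Difference of each gene between NaCl and CK (horizontal) and between NaCl+MT and CK (vertical), both in log2(mean FPKM + 1); red points are the 222 genes, grey points other genes, and dashed lines mark the limits of 1.5 and 0.5. The genes fill the lower right field, with wip1 lowest at -0.90, and the largest rise is 5.40.

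The choice depends on where the limits lie. Rises of at least 1.5 were measured in 571 genes, and in 552 of these every NaCl library lay above every CK library. In 456 of the 571 every NaCl library lay above all 6 others. Sorted by L(NaCl+MT) − L(CK), 54 of the 456 were at or below 0, 80 between 0 and 0.25, 88 between 0.25 and 0.5, 173 between 0.5 and 1, and 61 above 1. The limit of 0.5 thus falls inside a continuous range of genes with no gap at it. Just inside it were GRMZM2G017337 at 0.495, GRMZM2G172032 at 0.495 and GRMZM2G447795 at 0.494, and just outside AC233883.1_FG006 at 0.503, GRMZM2G372058 at 0.503 and GRMZM2G008642 at 0.504. At the limit on the rise, GRMZM2G117281 at 1.5, GRMZM2G136300 at 1.503 and GRMZM2G142919 at 1.510 were just inside, and In2-1 at 1.497, PYL11 at 1.495 and GRMZM2G092474 at 1.490 just below.

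A gene was tested across groups where at least 3 libraries reached 1 FPKM. This left out 11 of the 222 genes, among them mir1, and kept 211. With limma and Benjamini-Hochberg adjustment over the 22379 tested genes, 209 of the 211 were called higher in NaCl than in CK, where 13.6% of all tested genes were called higher. In NaCl+MT against NaCl 196 of the 211 were called lower, where 7.02% of tested genes were. In NaCl+MT against CK none of the 211 was called by limma, where 0.679% of tested genes were called higher, 0.282% lower and 0.961% in either direction, and 9 of the 211 had an unadjusted p under 0.05, where 18.3% of tested genes did. Every NaCl library lay above all others in 11.1% of tested genes, and in the 222 by the rule. Since the rule used these contrasts, nothing is read from the counts. The calls measure the spread between these libraries only. All groups shared a single spread estimate per gene, so the spread within NaCl also entered NaCl+MT against CK. The median SD in NaCl was 0.55 in the 222 genes and 0.24 over tested genes, in log2(FPKM + 1). That contrast was thus less able to call these genes than others. Without NaCl replicate 1, which is not part of it, limma called 873 genes there in place of 215, and still none of the 222.

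The libraries of the whole series differed in depth and in one respect that touches these genes. Low FPKM values are multiples of what 1 read is worth, and from 446 low genes the depth relative to CK replicate 1 came to between 0.892 and 1.82 in 7 of the other libraries and to 0.538 in NaCl replicate 3. The values of CK replicate 2 (1.82) and NaCl replicate 3 were picked among candidates by the share of values that were whole read numbers. In NaCl replicate 3 this share was 91.7% at 0.538 and 83.5% at 1.08. Genes at 0 numbered 12558 in NaCl replicate 3, while the remaining 8 libraries had between 9986 and 10802. Total read numbers are not given in the sources used here. In NaCl replicate 1 the 222 genes took 9.74% of the summed FPKM, against 4.56% and 4.22% in NaCl replicates 2 and 3, 1.15% to 1.71% in CK and 1.45% to 2.05% in NaCl+MT. The pair MPI and chiA alone made up 4.07% in NaCl replicate 1, and the other 220 genes 5.67%, against 3.32% and 3.07% in the other NaCl libraries.

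The NaCl replicates did not give one common picture of the set. Replicate 1 was the highest NaCl library in 144 of the 222 genes (64.9%; 31.9% of tested genes), replicate 2 in 60 and replicate 3 in 18. In 71 genes (32%; 3.23% of tested genes) replicate 1 was at least 1 log2 unit above the mean of the other NaCl libraries, in 23 (10.4%; 3.04% of tested genes) at least 1 unit below it, and in 128 within 1 unit. Replicates 2 and 3 lay within 1 unit of each other in 208 genes. The median over genes of the SD within a group, in log2(FPKM + 1), was 0.55 in NaCl, 0.20 in CK and 0.23 in NaCl+MT, against 0.24, 0.18 and 0.15 over tested genes. Without NaCl replicate 1, 170 genes met the rule, and 145 of them are among the 222. Without NaCl replicates 1 and 3 together, 195 genes met it.

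A like spread was measured in a comparison set. Its 318 genes also rose by at least 1.5 with every NaCl library above every CK library, but had L(NaCl+MT) − L(CK) above 0.5. There NaCl replicate 1 was highest in 72.6% and at least 1 unit above the others in 32.4%, and the median SD in NaCl was 0.53.

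**Figure D2:**
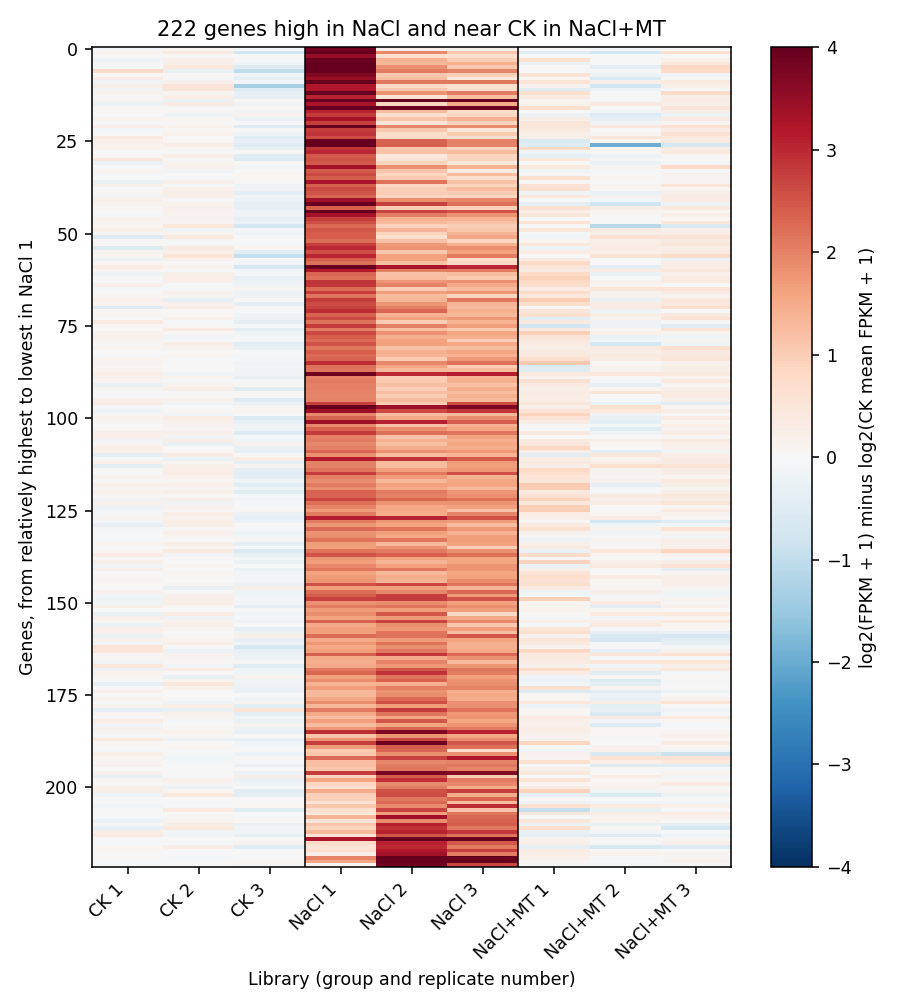
Each row is 1 of the 222 genes and each column 1 library; colour is log2(FPKM + 1) minus log2 of the CK mean FPKM + 1, with values beyond 4 drawn as 4, and rows run from relatively highest to relatively lowest in NaCl replicate 1. Nearly all NaCl cells are red, replicate 1 mostly darkest in the upper rows and palest in the lowest rows, while most CK and NaCl+MT cells are near white, an exception being wip1 in NaCl+MT replicate 2.

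**Figure D3:**
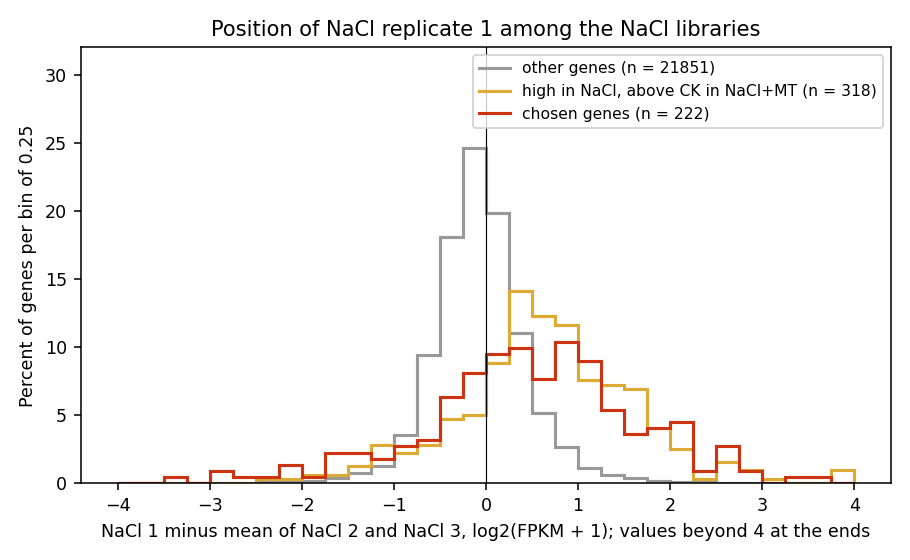
Share of genes (vertical, percent per bin of 0.25) by the difference between NaCl replicate 1 and the mean of NaCl replicates 2 and 3 in log2(FPKM + 1) (horizontal), for the 222 genes, the 318 genes that stayed above CK in NaCl+MT, and other genes. Other genes peak just below 0, and both sets are broader and shifted to the right.

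Chitinases and protease inhibitors included the most abundant named genes of the set, chiA and MPI. MPI (GRMZM2G028393) encodes the maize proteinase inhibitor, a serine protease inhibitor known from wounded leaves. It measured 1455, 1747 and 495 FPKM in CK, 11301, 2147 and 1866 FPKM in NaCl, and 1379, 733 and 1434 FPKM in NaCl+MT. The NaCl libraries were the highest, but replicates 2 and 3 exceeded CK replicate 2 only narrowly, while replicate 1 was over 5 times as high as either. Without it the rise of MPI was 0.70 in place of 2.05, and MPI was one of the 2 genes among the 211 that limma did not call between NaCl and CK (adjusted p = 0.0909, Benjamini-Hochberg).

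A related defence gene is wip1 (GRMZM2G156632), which encodes a wound-induced inhibitor of the Bowman-Birk type. Its FPKM were 99.4, 107 and 61.5 in CK, 1529, 474 and 353 in NaCl, and 63.8, 22.0 and 55.8 in NaCl+MT. All NaCl libraries were several times above the rest, and the NaCl+MT mean, 47.2 ± 22.2 (SD, n = 3), was below the CK mean of 89.1 ± 24.2. At -0.90 it had the lowest L(NaCl+MT) − L(CK) of the 222, but its NaCl+MT and CK libraries overlapped.

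The cystatins cc6 (GRMZM2G401328) and cc10 (GRMZM2G030717), inhibitors of cysteine proteases, were even across the NaCl libraries. For cc6, FPKM were 243, 209.6 and 161 in CK, 854, 917 and 744 in NaCl, and 228, 154 and 230.0 in NaCl+MT. That is a 4.10-fold higher mean in NaCl than in CK, and CK and NaCl+MT overlapped. In cc10 the means were 193 ± 58.6, 787 ± 89.8 and 259 ± 93.4 FPKM (SD, n = 3). Another cystatin, cc8, went from 5.86 to 35.5 and 8.89 FPKM and stayed outside the set at L(NaCl+MT) − L(CK) of 0.53. Of the 7 tested cystatin genes outside the set, limma called 2 higher in NaCl than in CK and none lower. Among all tested genes 13.6% were called higher and 12.4% lower.

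Both named chitinases of the set were highest in NaCl replicate 1. The seed chitinase gene chiA (GRMZM2G051943) measured 2009, 2023 and 1582 FPKM in CK, 11232, 4638 and 4192 in NaCl, and 2809.8, 1904 and 2499.9 in NaCl+MT. Its groups NaCl and CK were at least 2-fold apart in every library, while CK and NaCl+MT overlapped. For chiI (GRMZM2G145461), FPKM were 28.4, 36.1 and 16.0 in CK, 133, 52.0 and 54.6 in NaCl, and 26.6, 11.8 and 17.8 in NaCl+MT. Without NaCl replicate 1 the rises of chiA and chiI were 1.24 and 0.96 in place of 1.84 and 1.54.

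These 6 genes belong to a list of 18 tested pathogenesis-related, chitinase and inhibitor genes. Of the 12 that are not in the set, limma called 5 higher and 1 lower in NaCl than in CK, where 13.6% of all tested genes were called higher and 12.4% lower. In NaCl+MT against NaCl, 3 of the 12 were called lower and 1 higher, where 7.02% of tested genes were called lower and 11.6% higher. The median rise of the 12 was 0.90, against 0.04 over all tested genes, and their median L(NaCl+MT) − L(CK) was 0.32, against 0.07. Counts for the gene groups named further on likewise leave out the 222 genes.

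Other members with a defence role were few and varied in level. BX14 (GRMZM2G127418) encodes an O-methyltransferase of a late step in benzoxazinoid synthesis. Its FPKM were 15.4, 19.8 and 16.2 in CK, 281, 46.2 and 34.6 in NaCl, and 27.6, 17.2 and 19.9 in NaCl+MT. NaCl replicate 1 was at least 6 times as high as the other NaCl libraries, and without it the rise was 1.19 in place of 2.75. Of the 8 other benzoxazinoid genes tested, limma called none higher and 6 lower in NaCl than in CK, where 12.4% of all tested genes were called lower. The mean of bx1 fell from 4489 to 178 FPKM and was 2427 FPKM in NaCl+MT. In NaCl its libraries measured 0.211, 195 and 339 FPKM, replicate 1 being by far the lowest. NaCl replicate 1 was also the lowest NaCl library for bx2, BX3, BX4, BX5, bx6 and bx8, but not for bx9.

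The cysteine protease gene mir1 (GRMZM2G150276), known from insect-resistant maize, was listed at 0 in all 6 CK and NaCl+MT libraries and at 0.941, 3.28 and 4.07 FPKM in NaCl. It was the only one of the 222 genes at 0 in all 6. The related genes mir2 (44, 60.2 and 40.1 FPKM in CK, NaCl and NaCl+MT) and mir3 (225, 207 and 262 FPKM) were expressed in all groups, and neither was called by limma.

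For opr1 (GRMZM2G106303), of the 12-oxo-phytodienoic acid reductase family, FPKM were 4.34, 4.31 and 4.46 in CK, 10.7, 22.0 and 19.6 in NaCl, and 5.34, 4.54 and 4.04 in NaCl+MT. The NaCl libraries were 2-fold or more above all others, and here replicate 1 was the lowest of them. The related opr2 went from 2.43 to 11.8 and 5.58 FPKM, while opr7, a jasmonate synthesis gene, fell from 15.7 to 7.98 FPKM and measured 16.2 FPKM in NaCl+MT. Among the 27 other jasmonate genes tested, limma called 5 higher and 8 lower in NaCl than in CK, where 13.6% of all tested genes were called higher and 12.4% lower.

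Oxidative metabolism was represented by glutathione S-transferases, which attach glutathione to reactive compounds, and by an NADPH oxidase. gst7 (GRMZM2G028556) measured 6.11, 5.07 and 6.17 FPKM in CK, 31.6, 44.2 and 61.0 in NaCl, and 6.46, 9.03 and 9.20 in NaCl+MT. Its NaCl libraries were well apart from the rest, and its NaCl+MT libraries all lay above its CK libraries. For gst20 (GRMZM2G056388) the means were 9.11 ± 2.62, 28.7 ± 8.99 and 10.2 ± 1.22 FPKM (SD, n = 3). Without NaCl replicate 1 the rise of gst20 was 1.28 in place of 1.56, below the limit. Of the 28 other glutathione S-transferase genes tested, limma called 10 higher and 3 lower in NaCl than in CK. Over all tested genes 13.6% were called higher and 12.4% lower. In NaCl+MT against NaCl, 2 of the 28 were called lower and 3 higher, where 7.02% of tested genes were called lower and 11.6% higher. A separate list of 19 tested antioxidant enzyme genes held no member. Of these 19, limma called none higher and 4 lower in NaCl than in CK. Their median rise was -0.28, against 0.04 over all tested genes.

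The NADPH oxidase gene rbohD (GRMZM2G441541) belongs to the family that makes superoxide at the plasma membrane. It measured 5.06, 5.56 and 3.27 FPKM in CK, 17.1, 12.8 and 16.1 in NaCl, and 5.46, 4.87 and 5.42 in NaCl+MT. The NaCl libraries were alike and at least 2-fold above all others. The rise of rbohD, 1.54, was close to the limit and was 1.45 without NaCl replicate 1. The gene then left the set, as it also did with the libraries rescaled. Its relatives rbohB (10.6, 11.9 and 13.0 FPKM in CK, NaCl and NaCl+MT) and rbohC (8.38, 9.85 and 9.95 FPKM) were not called by limma in NaCl against CK.

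Among enzymes of carbon metabolism, the largest rise was that of ME1 (GRMZM2G085019), a malic enzyme that turns malate into pyruvate while forming NADPH. Its FPKM were 2.43, 2.21 and 2.26 in CK, 12, 119 and 68.7 in NaCl, and 2.83, 2.14 and 2.56 in NaCl+MT. The mean was 29.0-fold higher in NaCl than in CK. NaCl replicate 1 was by far the lowest of the NaCl libraries but still above all others, and CK and NaCl+MT overlapped. The other tested malic enzyme of this kind, me2, measured 136, 160.2 and 149 FPKM and was not called by limma in NaCl against CK. Of the 12 other malic enzyme and related C4 enzyme genes tested, limma called none higher and 1 lower in NaCl than in CK. Their median rise was -0.32. Over all tested genes 13.6% were called higher and 12.4% lower, with a median rise of 0.04.

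Genes of fermentation, the pathway that regenerates NAD+ when oxygen runs short, gave 2 members. PDC (GRMZM2G038821) encodes a pyruvate decarboxylase. It measured 2.44, 2.59 and 1.53 FPKM in CK, 27.2, 25.8 and 17.6 in NaCl, and 2.74, 2.97 and 2.38 in NaCl+MT. Alcohol dehydrogenase 1, adh1 (GRMZM2G442658), measured 62.0, 73.8 and 67.5 FPKM in CK, 257, 216 and 239.7 in NaCl, and 55.9, 87.8 and 101 in NaCl+MT. In both genes the NaCl libraries were close together and far above the others, and CK and NaCl+MT overlapped.

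The rest of that pathway did not follow. Mean FPKM of adh2 in CK, NaCl and NaCl+MT were 121, 23.1 and 81.6, and those of the other pyruvate decarboxylase gene, GRMZM2G087186, were 144, 143 and 157. Of the 6 other fermentation genes tested, limma called none higher and 1 lower in NaCl than in CK. The shares over all tested genes were 13.6% and 12.4%.

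The glycolytic gene gpc4 (GRMZM2G176307), which encodes a cytosolic glyceraldehyde-3-phosphate dehydrogenase, stood at 332, 252 and 335 FPKM in CK, 964, 1344 and 938 in NaCl, and 279, 323 and 316 in NaCl+MT. The NaCl+MT and CK means were both 306 FPKM. None of the other 3 genes of that enzyme was called by limma in NaCl against CK. SPP2 (GRMZM2G097641), a sucrose-phosphate phosphatase gene of the last step of sucrose synthesis, measured 1.69, 1.07 and 0.617 FPKM in CK, 22.6, 4.01 and 1.83 in NaCl, and 1.24, 0.402 and 1.2 in NaCl+MT. Here NaCl replicate 3 was barely above CK replicate 1. Without NaCl replicate 1 the rise of SPP2 was 0.88 in place of 2.30, and limma did not call it between NaCl and CK (adjusted p = 0.0567, Benjamini-Hochberg).

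The plastid methylerythritol phosphate pathway makes the isoprenoid building blocks of carotenoids, chlorophyll side chains, gibberellins and abscisic acid. Its last enzymes are encoded by Hds1 (GRMZM2G137409) and lw1 (GRMZM2G027059), and both were in the set. Hds1 measured 42.7, 40.2 and 27.9 FPKM in CK, 150.0, 90.6 and 123 in NaCl, and 47.7, 44.9 and 46.5 in NaCl+MT. For lw1, FPKM were 38.7, 36.6 and 27.4 in CK, 143, 69.5 and 90.5 in NaCl, and 38.7, 35.4 and 38.1 in NaCl+MT. The libraries of the 2 genes had the same order within NaCl, replicate 1 highest and replicate 2 lowest. The presence of lw1 in the set depended on that replicate 1, since its rise was below the limit of 1.5 without it. This gene also left the set without CK replicate 3 and under 1 of the scalings. Hds1 stayed in each time, but its rise was close to the limit without NaCl replicate 1.

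Genes of the first steps, dxr and dxs2, rose too but fell outside the set. Mean FPKM of dxr were 13.1 in CK, 77.8 in NaCl and 20.2 in NaCl+MT (L(NaCl+MT) − L(CK) of 0.58), and those of dxs2 were 11.2, 56.1 and 23.5 (1.01). With 18, 16.7 and 22.9 FPKM, dxs1 was not called in NaCl against CK. Of these 3 genes outside the set limma called 2 higher in NaCl than in CK and the same number lower in NaCl+MT than in NaCl. The shares over all tested genes were 13.6% and 7.02%. This group was put together after values had been seen.

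Genes tied to growth and hormone response were led by ARGOS8 (GRMZM2G354338), a negative regulator of ethylene response. Its FPKM were 0.997, 0.494 and 0.507 in CK, 23.9, 12.1 and 13.6 in NaCl, and 1.18, 1.24 and 1.18 in NaCl+MT. The NaCl libraries were about 10 times or more above all others, and the NaCl+MT libraries all lay just above the CK libraries. With a pseudocount of 0.1 or 0.5, or without CK replicate 1, ARGOS8 left the set. Of the 7 other genes named for this family, limma called 2 higher and 1 lower in NaCl than in CK, ARGOS9 going from 10.1 to 26.9 FPKM and to 14.1 FPKM in NaCl+MT. Among the 10 other tested genes of a wider ethylene list the calls were 4 higher and 1 lower, with a median rise of 0.39. All tested genes had shares of 13.6% higher and 12.4% lower, with a median rise of 0.04.

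CNR2 (GRMZM2G151230) belongs to the cell number regulator family, whose founding member CNR1 restricts cell number in maize organs. It measured 25.6, 26.6 and 18.5 FPKM in CK, 263, 204 and 132 in NaCl, and 28.8, 18 and 25 in NaCl+MT. Every NaCl library was far above every other, and the NaCl+MT mean of 23.9 ± 5.51 was close to the CK mean of 23.5 ± 4.40 (SD, n = 3). CNR10 had a like pattern, with 3.48, 32.3 and 5.39 FPKM, just outside the limit at 0.51. CNR1 itself measured 6.32, 3.48 and 5.21 FPKM and was called lower in NaCl than in CK by limma. Of the 8 tested genes of the family outside the set, limma called 2 higher and 1 lower, beside 13.6% and 12.4% of all tested genes.

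PSK3 (GRMZM2G084859) encodes a precursor of phytosulfokine, a small sulfated peptide hormone. It measured 15.0, 9.02 and 8.35 FPKM in CK, 36.6, 49.6 and 33.6 in NaCl, and 20, 8.43 and 12.3 in NaCl+MT. Its groups CK and NaCl+MT overlapped, with replicate 1 the highest in both. The paralogue psk1 went from 23 to 58.0 and 28.3 FPKM, and PSK2 from 10.3 to 4.19 and 9.70 FPKM. PSK4 measured 16.4, 15.9 and 14.3 FPKM in CK, NaCl and NaCl+MT. Of these 3 genes limma called 1 higher and 1 lower in NaCl than in CK, beside 13.6% and 12.4% of all tested genes.

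P4H4 (GRMZM5G843555) encodes a prolyl 4-hydroxylase, an enzyme that modifies prolines of cell wall glycoproteins. Its means were 6.43 ± 0.253, 30.3 ± 5.67 and 9.26 ± 1.01 FPKM in CK, NaCl and NaCl+MT (SD, n = 3), and all NaCl+MT libraries lay above all CK libraries. Bk2L6 (GRMZM2G167520), of the brittle stalk 2-like family of COBRA proteins, had means of 2.05 ± 0.229, 7.97 ± 1.70 and 2.84 ± 0.0645 FPKM. Its NaCl+MT libraries too lay above all its CK libraries.

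The phosphate transporter genes pht1 (GRMZM2G326707) and pht2 (GRMZM2G154090) carry phosphate into cells. For pht1, FPKM were 7.65, 9.26 and 6.80 in CK, 54.5, 16.6 and 20.1 in NaCl, and 12.8, 8.33 and 8.69 in NaCl+MT. In pht2 they were 1.71, 2.00 and 1.70, then 12.6, 6.24 and 6.40, then 2.87, 2.58 and 2.75. NaCl replicate 1 was the highest in both, and without it the rises were 1.12 in place of 1.82 and 1.38 in place of 1.75. Of 11 genes named pht, these were the only ones that passed the filter on low values. All NaCl+MT libraries of pht2 lay above all its CK libraries.

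Named genes whose role is not described here were AK1 (GRMZM2G024686), with means of 18.1 ± 3.27, 113 ± 59.9 and 16.6 ± 1.86 FPKM in CK, NaCl and NaCl+MT, sat1 (GRMZM2G069203), with 3.64 ± 1.1, 25.7 ± 6.4 and 5 ± 1.2, and PK1 (GRMZM2G328785), with 3.33 ± 0.756, 14.7 ± 3.27 and 3.93 ± 0.382 (SD, n = 3). AK1 was lowest in NaCl replicate 1, at 45.6 FPKM against 160.0 and 134.

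**Figure D4:**
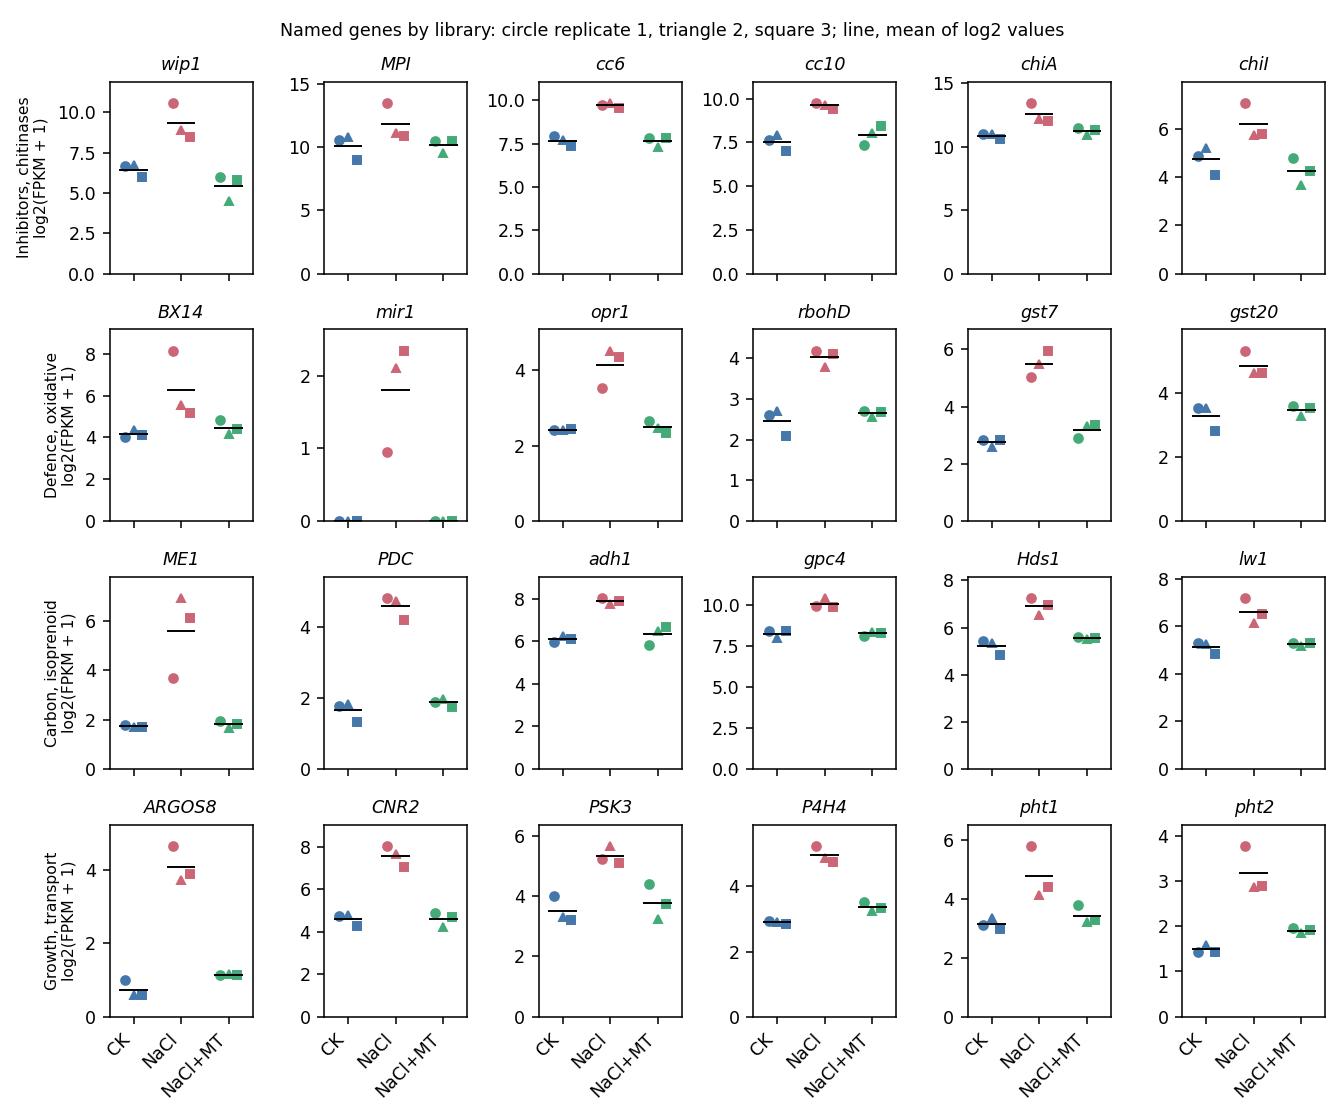
FPKM of 24 named genes of the set by library, as log2(FPKM + 1) on axes that start at 0; circles, triangles and squares are replicates 1, 2 and 3 of CK (blue), NaCl (red) and NaCl+MT (green), and lines are means of the 3 log2 values. NaCl replicate 1 is the highest point for wip1, MPI, chiA and BX14 and the lowest for ME1, mir1 and opr1.

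Most of the 222 genes carry an identifier only. A single RefSeq gene could be matched to 135 of them (60.8%, against 67.6% of tested genes), and 29 had a gene name (13.1%, against 9.21%). The largest rises were among the genes without one. GRMZM2G045155 measured 0.201, 0.110 and 0.188 FPKM in CK, 98.8, 29.0 and 16.9 in NaCl, and 0.910, 0.159 and 0.675 in NaCl+MT, a rise of 5.40. GRMZM2G037284 measured 0.664, 0.249 and 0.582 FPKM in CK, 119.6, 28.8 and 25 in NaCl, and 0.630, 0.447 and 0.834 in NaCl+MT, a rise of 5.29. The means of GRMZM2G045155, 0.166 FPKM in CK and 0.581 in NaCl+MT, counted as close with the pseudocount of 1. With a pseudocount of 0.5 or 0.1 this gene left the set, as it did without NaCl+MT replicate 2. Both GRMZM2G045155 and GRMZM2G037284 were near the floor of detection outside NaCl, and highest in NaCl replicate 1.

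A pair of others had the opposite order within NaCl. GRMZM2G059700 was at 0.0180 FPKM or less in CK, at 8.53, 42.7 and 33.3 in NaCl and at 0.135 or less in NaCl+MT. GRMZM2G099420 measured 0.636, 0.713 and 0.773 FPKM in CK, 3.95, 42.9 and 27.7 in NaCl, and 0.850, 0.700 and 0.898 in NaCl+MT. As in ME1, NaCl replicate 1 was the lowest NaCl library and still above every CK and NaCl+MT library.

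Abundant genes without a name rose as well. Mean FPKM of GRMZM2G037452 were 77.2 ± 24.4 in CK, 983 ± 497 in NaCl and 87.9 ± 26.7 in NaCl+MT (SD, n = 3), and those of GRMZM2G074017 were 60.7 ± 8.69, 709.9 ± 768 and 78.9 ± 8.53. In GRMZM2G074017 NaCl replicate 1 reached 1597 FPKM, against 267 and 265 in the other NaCl libraries. The rise of GRMZM2G037327 was 3.60 and fell to 1.57 without NaCl replicate 1, which measured 157 FPKM against 18.6 and 10.2.

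Members below the control in NaCl+MT included, besides wip1 and chiI, GRMZM2G094510 with 33.2 ± 6.11, 302 ± 196 and 24.4 ± 5.22 FPKM in CK, NaCl and NaCl+MT, GRMZM2G040102 with 4.94 ± 0.307, 27.2 ± 11.9 and 3.36 ± 0.809, and GRMZM2G112617 with 1.91 ± 0.660, 12.2 ± 9.48 and 1.09 ± 0.238 (SD, n = 3). In GRMZM2G040102 all 3 NaCl+MT libraries lay below all 3 CK libraries.

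The separation of the groups differed from gene to gene. In 115 of the 222 genes the lowest NaCl library was at least 2 times the highest of the other 6, and in 10 it was less than 1.1 times that value, SPP2 among them. Leaving out each of the 9 libraries in turn kept 84 of the 222 in the set every time. Of the 50 genes named by the rule or added to it, 22 stayed in every time, and 14 left when NaCl replicate 1 was left out.

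Most gene lists held no member by name. Of 28 gene lists compiled from gene names, 20 held none of the 222 genes, including the lists of 32 tested abscisic acid signalling genes, 17 NAC, 15 WRKY, 27 ethylene response factor, 34 MYB, 28 bZIP and 36 bHLH genes, 26 heat shock genes and 14 late embryogenesis genes. With 29 of the 222 genes carrying a name, these lists reach a small part of the set. Since 2061 tested genes had a name, lists of this size would hold few members or none. An empty list is therefore no result about its family. Of the 32 abscisic acid signalling genes, limma called 11 higher and 2 lower in NaCl than in CK (13.6% and 12.4% of tested genes). In NaCl+MT against NaCl it called 8 lower and 3 higher (7.02% and 11.6%). Of 36 seed reserve genes, which bear on the labelled tissue, 9 passed the filter on low values and none was a member. Of these 9, limma called 2 higher and 1 lower in NaCl than in CK. Their median rise was 0.52, against 0.04 over all tested genes. Only 3 of the 36 are described here. Isocitrate lyase, of reserve lipid use, was high in all groups, with ICL means of 2107, 2083 and 2306 FPKM in CK, NaCl and NaCl+MT. The zein genes gz16 and bz15, markers of the filling endosperm, had means under 2 FPKM in every group.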

How the data were processed

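Germinating maize seeds gave 9 RNA-seq libraries in 3 groups. The authors deposited FPKM per gene. Per the submitters' processing notes, reads were handled with HISAT2, featureCounts and DESeq2 on the B73 RefGen_v3 build; their versions, parameters and strand setting are not given in the sources used here. FPKM are not counts, so no count test was run, and reads shared by paralogues or overlapping genes may be split between them. No columns other than the 9 libraries hold values, and no 2 columns are identical.

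The 222 genes were found by the rule on log2 of the group mean FPKM + 1. Differences on this scale understate the change of low genes. All genes with at least 1 FPKM in at least 3 libraries were fitted in 1 limma model (limma 3.58.1, R 4.3.3) of 3 group means on log2(FPKM + 1) with a mean-variance trend. P-values were Benjamini-Hochberg adjusted over the 22379 genes, with a threshold of 0.05. The fit was also run on simulated data with the same spread in all groups. That run does not cover the wider spread of the 222 genes within NaCl. Exact permutation of 3 against 3 libraries cannot go below p = 0.1.

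The set, the gene lists and the tests were chosen with earlier results of these data known. Named are the 12 genes with the largest rise, up to 25 further ones with a gene name, the 5 highest in NaCl, the 5 lowest in L(NaCl+MT) − L(CK), 3 genes on each side of either limit and the top member of each list. Not all of them are described. Outside this rule, rbohD, lw1, the non-members beside them and the gene families were chosen after their values were seen. Gene names come from the RefSeq table of assembly NAM-5.0, in which 18386 identifiers matched exactly 1 gene; no coordinates were taken from it. Promoter and protein sequences were not analysed here. Alternatives covered pseudocount, scaling, filter, limits, trend, block and left-out libraries.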

Additional observations from a re-analysis of the deposited data

How the results depend on the processing

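The number of genes meeting the rule, 222, was most sensitive to its limits. It was 594 with a smallest rise of 1, 98 with one of 2, 134 with a largest L(NaCl+MT) − L(CK) of 0.25, 395 with one of 1, and 383 with a pseudocount of 0.1, under which the median rise of the 222 was 2.28 in place of 1.87. The 383 genes held 182 of the 222, and a pseudocount of 0.5 kept 195 of them. Rescaling the libraries kept 193 of the 222 under both scalings. Leaving out 1 library gave 170 (NaCl replicate 1) to 309 (NaCl+MT replicate 1) genes. Over these settings limma called 178 to 203 members in NaCl against CK, 170 to 191 in NaCl+MT against NaCl and 0 in NaCl+MT against CK. Over all genes, limma called 5808 in NaCl against CK (3849 to 6017 with a library left out, the lowest without CK replicate 1; 3684 with a minimum of 5 FPKM), 4164 in NaCl+MT against NaCl (2280 to 4220, the lowest without NaCl+MT replicate 2; 2605 with that minimum) and 215 in NaCl+MT against CK (6 without NaCl+MT replicate 3 to 873 without NaCl replicate 1; 123 with that minimum and 39 with no filter). Without NaCl replicates 1 and 3 together, a setting chosen after seeing the data, these were 2446, 1641 and 1065, and the lone NaCl library was assumed to vary like the other groups. The causes were not tested. Of 700 rises of named genes under alternatives none was at or below 0, and 8 were below 1, the lowest 0.61. Pairing of the samples by replicate number was not seen: deviations of same-numbered libraries correlated at -0.37 to 0.15, above 0.1 in 1 of 9 pairs. Those of different-numbered libraries correlated at -0.22 to 0.24. With 3 libraries per group these values cannot exclude pairing. With the replicate number as a block, limma called 4934, 3498 and 72 genes in the same order of contrasts. The comparison of promoter sets was not run, since no sequences were used here. Depth limits genes near 0, above all in NaCl replicate 3.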

Other observations

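In the RefSeq gene order 135 of the 222 genes could be placed, and 7 pairs of them had at most 2 genes between. The number of such pairs in other sets of genes was not counted, so no clustering is read from it. NaCl replicate 1 was the highest NaCl library in 64.9% of the 222 genes, so pairs that share this are common. It was the lowest in 50 of the 222, AK1 and GRMZM2G024389 among them. AK1 and GRMZM2G024389 were adjacent and had the same order within NaCl, with 45.6, 160.0 and 134 FPKM in AK1 and 27.7, 112 and 86.8 FPKM in GRMZM2G024389. The adjacent genes chiA and GRMZM2G051921 were both highest in NaCl replicate 1, with 215, 117 and 109 FPKM in GRMZM2G051921. So were the adjacent genes GRMZM2G030138, with 185, 86.7 and 91.7 FPKM, and GRMZM2G328171, with 527, 243 and 256 FPKM. Whether reads are shared between adjacent genes was not tested.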
